A study of Mus musculus with 6 samples.

Results

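The kidney clears many drugs, toxins and endogenous acids and bases through a set of transporters in the proximal tubule, and 9 of their genes are described here in homozygous mutant and wild-type mouse kidney. They are Slc22a2, Slc22a6, Slc22a7, Slc22a8, Slc22a12, Slc22a18, Slc22a22, Slco1a6 and Abcg2. A probe was taken for a gene where the platform annotation gave exactly 1 symbol and that symbol was among the 9. This found 11 probes, and the probe with the highest mean log2 level over the 6 arrays stood for its gene. The second probes of Slc22a7 and Slc22a22 are given beside it, and brighter means the higher mean log2 level. The 9 genes are among 14817 that were tested, and all 9 passed the filter on dim probes.

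The mice were 3 homozygous mutants and 3 wild types, with a part of 1 kidney per animal frozen after the vessels had been rinsed with saline and 1 CodeLink array, a single-colour oligonucleotide array, per animal. The series text calls the 3 arrays of a genotype different animals. No source used here names the mutated gene, strain, age or sex, so the mutation itself could not be checked against the labels. Such tissue is bulk kidney, with all of its cell types together. The kidney markers Umod of the thick ascending limb, Slc12a3 of the distal convoluted tubule, Aqp2 of the collecting duct and Nphs1 of podocytes read above the low-signal limit, set at 1.53 times the array median, on all 6 arrays.

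Transport of an organic anion across a proximal tubule cell takes more than 1 protein. On the blood side, members of the Slc22 family exchange organic anions for a dicarboxylate held inside the cell, or let organic cations in along the membrane potential. On the urine side, efflux pumps of the ABC family and further exchangers pass the substrates into the tubule lumen, while the urate exchanger Slc22a12 works in the direction of reabsorption. The transcription factor Hnf4a is known to act on several of these genes, and in rodents the level of some differs between males and females.

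The promoters of 4 of the genes are shown because they include the neighbouring pair Slc22a8 and Slc22a6 on chromosome 19, whose values differed in whether they passed the test, and 2 genes with a match to a motif near their start. The windows are from RefSeq (GRCm38.p6), run from 250 bases before to 50 after the start in the direction of transcription, and 8 of the 9 genes had at least 1 in the table, with 11 windows in all. Slc22a7 had none. Both strands were searched for CAAAGT, which lies within the HNF4 motif. The windows of Slc22a8 (chr19:8592932-8593231, plus strand) and Slc22a6 (chr19:8617746-8618045, plus strand) held no match. Capitals mark CAAAGT in that of Slco1a6 (chr6:142186100-142186399, minus strand), 86 bases before the start, and its reverse complement ACTTTG in that of Slc22a12 (chr19:6543021-6543320, minus strand), 63 bases before the start.
Slc22a8: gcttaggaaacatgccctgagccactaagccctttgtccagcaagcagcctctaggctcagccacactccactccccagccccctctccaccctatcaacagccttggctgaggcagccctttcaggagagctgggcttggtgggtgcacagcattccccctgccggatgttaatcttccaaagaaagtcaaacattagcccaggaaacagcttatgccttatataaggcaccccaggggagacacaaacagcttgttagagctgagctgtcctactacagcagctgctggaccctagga
Slc22a6: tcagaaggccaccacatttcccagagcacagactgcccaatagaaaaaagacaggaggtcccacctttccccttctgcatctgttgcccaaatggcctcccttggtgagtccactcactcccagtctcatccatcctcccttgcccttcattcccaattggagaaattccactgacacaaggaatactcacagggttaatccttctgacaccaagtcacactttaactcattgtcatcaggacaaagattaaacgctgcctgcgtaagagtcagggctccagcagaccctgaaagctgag
Slco1a6: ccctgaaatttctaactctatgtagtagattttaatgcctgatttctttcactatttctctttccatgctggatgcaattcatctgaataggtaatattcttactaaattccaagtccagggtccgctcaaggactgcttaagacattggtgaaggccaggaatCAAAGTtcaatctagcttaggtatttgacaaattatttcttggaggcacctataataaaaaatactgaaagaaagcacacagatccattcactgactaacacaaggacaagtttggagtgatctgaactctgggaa
Slc22a12: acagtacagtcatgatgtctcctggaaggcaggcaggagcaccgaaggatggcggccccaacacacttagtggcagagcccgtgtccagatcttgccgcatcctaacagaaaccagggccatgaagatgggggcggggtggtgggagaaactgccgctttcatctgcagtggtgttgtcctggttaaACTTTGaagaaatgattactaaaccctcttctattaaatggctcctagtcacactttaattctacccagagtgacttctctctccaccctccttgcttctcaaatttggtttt
CAAAGT was found in the windows of 3 of the 8 genes, the third being 1 of the 2 windows of Slc22a22. By window it was found in 3 of the 11 windows of these genes and in 14.4% of all 32851 windows of the table. A match of 6 letters is a description of the sequence and does not show that a factor binds there.

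All 9 genes had a lower mean in mutant kidney, and 6 of them passed the test, namely Slc22a8, Slco1a6, Slc22a22, Abcg2, Slc22a7 and Slc22a18. Levels are intensities divided by the median of the array, and differences are mutant minus wild type in log2 units with the SE of a limma fit over all probes, adjusted by the Benjamini-Hochberg method, with n = 3 mice per genotype. A gene is said to have fallen only past an adjusted p of 0.05. Across all genes 235 of 14817 fell (1.59%) and 840 rose (5.67%), and among the 6239 genes at least as bright as the dimmest of the 9, 216 fell (3.46%). The median difference was -0.96 over the 9 genes and 0.08 over all genes tested. In 7 of the 9 genes every mutant array lay below every wild-type array, which was so in 8.89% of all genes measured on 6 arrays. Of the 6 calls 5 held without any single array, the exception being Slc22a7. The call of Slc22a7 also depends on which of its probes stands for the gene. When the prior variance was given no trend with intensity, the differences were the same but the number that passed was 1, Slco1a6 (limma, adjusted p = 0.0481), and over all genes 6 fell, or 0.0405%.

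**Figure D1:**
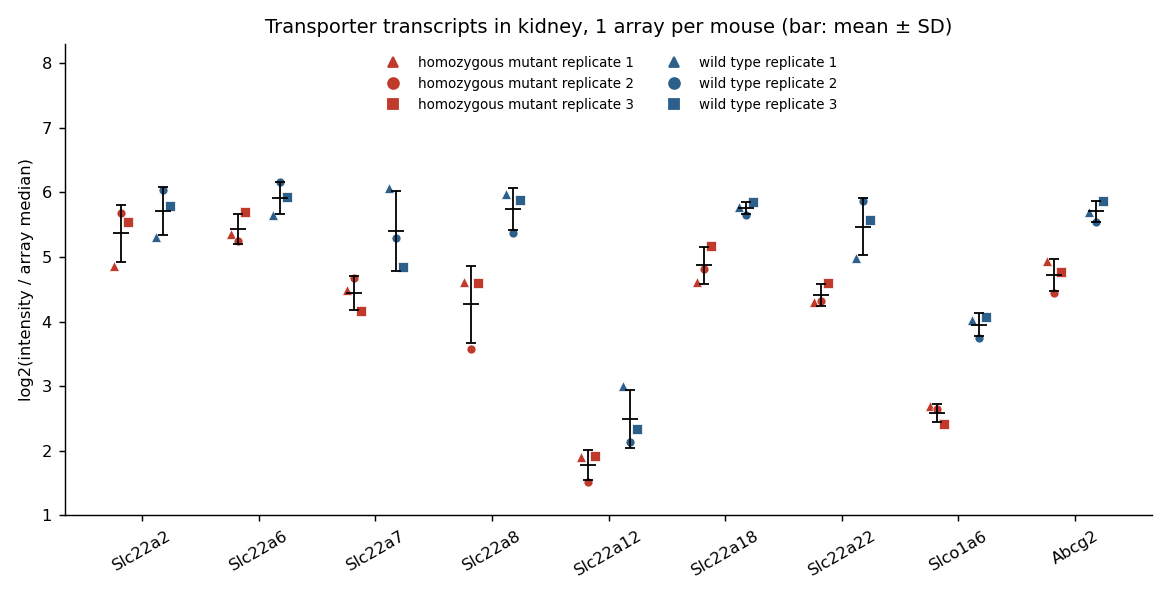
Log2 intensity over the array median (vertical axis) of the 9 transporter genes in 3 homozygous mutant kidneys (red, left of each pair) and 3 wild-type kidneys (blue, right), each point 1 mouse and the bars the mean ± SD. The red points lie below the blue ones in 7 genes, and the groups overlap in Slc22a2 and Slc22a6.

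Among the carriers that bring organic anions in from the blood, Slc22a8, which encodes OAT3, differed most. Its level was 24.5, 12.0 and 24.2 in mutant replicates 1 to 3, against 62.7, 41.4 and 59.0 in wild-type replicates 1 to 3. The highest mutant lay well below the lowest wild type. Slc22a8 fell by 1.48 ± 0.24 log2 units, or 2.78-fold (limma, adjusted p = 0.00240), and between 1.13 and 1.66 units in fits that left out 1 array.

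Slc22a6 encodes OAT1, the carrier of para-aminohippurate, and is the next protein-coding gene to Slc22a8 on the chromosome. Its level was 40.8, 38.0 and 52.1 in mutants, against 50.5, 71.7 and 60.8 in wild types. Mutant replicate 3 lay above wild-type replicate 1, so the groups overlapped. The difference was -0.48 ± 0.17 log2 units and did not pass (limma, adjusted p = 0.135, unadjusted p = 0.0121). The difference between these neighbours in their response was not tested.

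Slc22a7, which encodes the organic anion carrier OAT2, was measured by 2 probes that gave the same direction with unlike sizes. The brighter probe read 22.5, 25.6 and 18.0 in mutants, against 67.2, 39.4 and 28.7 in wild types. All mutants were below all wild types, but wild-type replicate 1 stood above the other two. By this probe Slc22a7 fell by 0.96 ± 0.24 log2 units, or 1.94-fold (limma, adjusted p = 0.0343). Without wild-type replicate 1 the difference was -0.63 and the adjusted p 0.0818, and the call was also lost without mutant replicate 1, 2 or 3 or wild-type replicate 2 (limma, adjusted p between 0.0625 and 0.147). The second probe read 16.0, 13.5 and 8.72 in mutants, against 149, 24.9 and 19.6 in wild types. It differed by -1.76 ± 0.53, which did not pass (limma, adjusted p = 0.0817), whereas with replicate 1 entered as a term the difference was -1.76 ± 0.34 and passed (limma, adjusted p = 0.00703). On both probes wild-type replicate 1 was the highest of the 6 arrays. Without the log scale the order of the probes reverses, and the second probe has the higher mean over the 6 arrays. Its mean level was 12.7 in mutants and 64.4 in wild types, against 22.0 and 45.1 by the brighter probe. Chosen that way, the second probe would stand for Slc22a7, which would then not pass.

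Slc22a2 encodes OCT2, the main organic cation carrier of the blood side of the tubule in rodents and humans. Its level was 29.1, 51.4 and 46.8 in mutants, against 39.6, 65.5 and 55.2 in wild types. The ranges overlapped, and replicate 1 was the lowest of its genotype in both groups. The difference of -0.34 ± 0.22 log2 units was the smallest of the 9 and did not pass (limma, adjusted p = 0.482).

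Slc22a22 encodes a carrier of the mouse kidney known as OAT-PG, which takes up prostaglandins. Its brighter probe read 19.8, 19.97 and 24.3 in mutants, against 31.6, 58.1 and 47.5 in wild types. The mutants were close together and below all wild types, among which replicate 1 was the lowest. Slc22a22 fell by 1.06 ± 0.19 log2 units, or 2.09-fold (limma, adjusted p = 0.00462). The second probe read 0.877, 0.954 and 1.62 in mutants, against 0.677, 3.13 and 2.60 in wild types. Of these 6 values 3 lay under the low-signal limit of 1.53 times the array median, and its difference of -0.67 ± 0.54 did not pass (limma, adjusted p = 0.596).

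Slco1a6 belongs to the OATP family of sodium-independent anion carriers and is known to be expressed in mouse kidney. Its level was 6.45, 6.24 and 5.36 in mutants, against 16.3, 13.4 and 16.8 in wild types. Both groups were tight and far apart. Slco1a6 fell by 1.36 ± 0.16 log2 units, or 2.57-fold, with the smallest adjusted p of the 9 (limma, 0.000123), and it passed in all 20 alternative fits.

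On the urine side, Abcg2 encodes the efflux pump BCRP, which also moves urate. Its level was 30.7, 21.8 and 27.3 in mutants, against 52.1, 46.8 and 58.3 in wild types, with no overlap. Abcg2 fell by 0.99 ± 0.15 log2 units, or 1.98-fold (limma, adjusted p = 0.00151). Slc22a12 encodes URAT1, the urate exchanger that recovers urate from the filtrate. It read 3.74, 2.87 and 3.77 in mutants, against 7.99, 4.38 and 5.07 in wild types. The groups did not overlap, with the closest values 3.77 in a mutant and 4.38 in a wild type, and the difference of -0.71 ± 0.24 did not pass (limma, adjusted p = 0.128, unadjusted p = 0.0111).

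Slc22a18, a member of the family with a less settled substrate range, lies in an imprinted cluster on chromosome 7 between Cdkn1c and Phlda2. Its level was 24.5, 28.3 and 36.2 in mutants, against 54.8, 50.5 and 57.6 in wild types. The wild types were within a narrow range above all mutants. Slc22a18 fell by 0.89 ± 0.16 log2 units, or 1.85-fold (limma, adjusted p = 0.00345).

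Summed over the 9 genes, the level was between 202 and 238 array medians in mutants and between 383 and 391 in wild types. The 9 profiles were not copies of each other. Over the 6 arrays Pearson's r was 0.97 between Slc22a8 and Abcg2 and 0.95 between Slc22a6 and Slc22a22, and 0.12 between Slc22a2 and Slc22a8 and -0.08 between Slc22a2 and Slc22a12. These 6 points share the contrast of genotypes, so the values describe the arrays only. The 5 genes outside the 9 whose log2 levels followed the mean profile of the 9 most closely were Lrrc8a, Ndufa9, Tmem174, Slc16a13 and Gcdh (r between 0.994 and 0.998, n = 6 arrays). That profile holds the difference between genotypes, so the differences of these 5 genes, between -0.81 and -0.43, were largely set by their choice and are a description without a test.

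The replicate numbers coincide with a pattern of sex-linked transcripts. Xist, transcribed from the inactive X chromosome of females, read 7.98 in mutant replicate 1 and 4.64 in wild-type replicate 1, while replicates 2 and 3 read 0.741 and 0.862 in mutants and 0.760 and 0.556 in wild types. Eif2s3y, a gene of the Y chromosome, read 0.162, 11.0 and 8.05 in mutants and 0.0435, 9.33 and 10.4 in wild types, again with replicate 1 apart. Kdm5d, another Y-linked gene, read 1.16, 1.89 and 1.76 in mutants and 1.25, 2.44 and 2.39 in wild types, under the low-signal limit in replicate 1 alone. The arrays of replicate 1 therefore carry the female transcript pattern and those of replicates 2 and 3 the male one, in both genotypes. By this pattern each genotype holds 1 mouse of the first kind and 2 of the second.

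With replicate 1 entered as a term beside genotype, a fit chosen after the values had been seen, the same 6 genes fell, against 2.30% of all genes. In that fit 0 of the 9 differed between replicate 1 and replicates 2 and 3 past the threshold (limma, adjusted p between 0.124 and 0.818), against 5 of all 14817 genes (0.0337%). At an unadjusted p under 0.05 this replicate term was met by 4 of the 9, and by 11.1% of all genes. As replicate 1 minus replicates 2 and 3, Slc22a2 differed by -0.68 ± 0.13 log2 units and Slc22a22 by -0.44 ± 0.16. Slc22a7 differed by 0.54 ± 0.21 and Slc22a12 by 0.47 ± 0.22. The second Slc22a7 probe differed by 1.65 ± 0.36 (limma, adjusted p = 0.156, unadjusted p = 0.000555).

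For Slc22a7 the height of replicate 1 was seen in wild type more than in mutant kidney. By the second probe, mutant replicate 1 was 1.44 times the mean of mutant replicates 2 and 3, and wild-type replicate 1 was 6.67 times the mean of wild-type replicates 2 and 3. By the brighter probe these ratios were 1.04 in mutants and 1.97 in wild types. A test of whether the genotype difference itself depended on replicate 1 gave -2.19 ± 0.36 log2 units for the second probe (limma, adjusted p = 0.203, unadjusted p = 0.000143) and -0.92 ± 0.35 for the brighter one (limma, adjusted p = 0.575, unadjusted p = 0.0257). Neither passed, 0 of the 9 genes passed, and 2 of all genes did (0.0135%). At an unadjusted p under 0.05 this test was met by 1 of the 9 and by 8.47% of all genes. Each genotype has 1 mouse of this pattern, so its spread is taken from the other mice.

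With replicates 2 and 3 alone, 5 of the 9 genes fell, against 1.50% of all genes in that fit, and the differences were -1.54 for Slc22a8, -1.38 for Slco1a6, -1.25 for Slc22a22, -1.10 for Abcg2 and -0.75 for Slc22a18. Slc22a7 then differed by -0.65 and did not pass (limma, adjusted p = 0.125). Between the mutant and the wild type of replicate 1 the differences were -1.35 for Slc22a8, -1.34 for Slco1a6, -0.68 for Slc22a22, -0.76 for Abcg2, -1.16 for Slc22a18 and -1.57 for Slc22a7, with 1 mouse each and no test. The 6 listed androgen-responsive kidney genes were also read. Of these, 5 had a negative difference, against 6299 of all 14817 genes. The list median was -0.54, against 0.08 for all genes. Slco1a1, of this list, lay under the low-signal limit on all arrays. In the fit with replicate 1 as a term, replicate 1 minus replicates 2 and 3 lay between -2.05 and 0.14 for the 6 genes. None passed by that term (limma, adjusted p between 0.230 and 0.940). Slco1a6, itself 1 of the 9, fell, and Gusb rose by 0.71 ± 0.19 (limma, adjusted p = 0.0426), a call lost under most alternatives. Odc1 differed by -0.50 ± 0.15 with its groups apart and did not pass (limma, adjusted p = 0.0813). The androgen-regulated protein Kap differed by -0.58 ± 0.18 (limma, adjusted p = 0.0901).

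**Figure D2:**
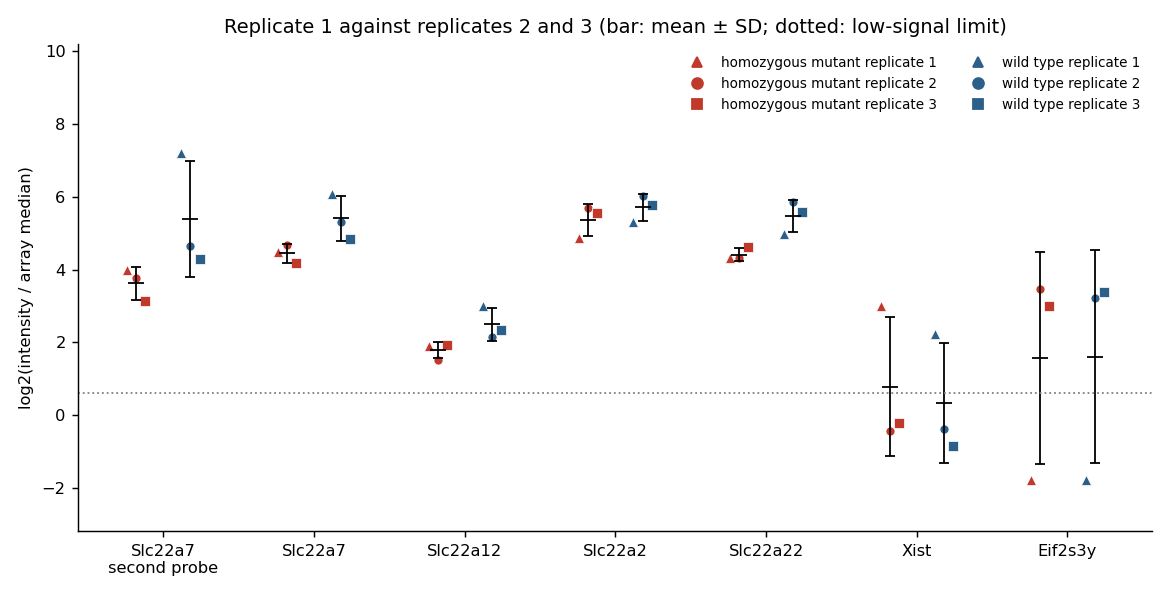
Log2 intensity over the array median (vertical axis) of both Slc22a7 probes, Slc22a12, Slc22a2, Slc22a22, Xist and Eif2s3y, with mutants in red on the left of each pair and wild types in blue, triangles for replicate 1, and bars for mean ± SD. Replicate 1 of both genotypes is high in Xist and low in Eif2s3y, and wild-type replicate 1 is the highest point of both Slc22a7 probes.

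Related carriers did not all move with the 9. Of 31 other Slc22 and Slco genes on a list, 21 had a probe and 17 were tested. Of these 2 fell, 2 rose and 13 did not pass, with a median difference of -0.25. Among those that did not pass, 6 had means under the low-signal limit, against 0 of the 9. Slc22a5, which encodes the carnitine carrier OCTN2, read 6.53, 4.32 and 6.39 in mutants, against 10.1, 10.7 and 10.1 in wild types, and fell by 0.86 ± 0.18 log2 units (limma, adjusted p = 0.0120). Slc22a19, an organic anion carrier of the rodent kidney, read 39.3, 36.5 and 32.8 in mutants, against 78.8, 57.4 and 52.0 in wild types, and fell by 0.77 ± 0.16 (limma, adjusted p = 0.0125). The groups of both genes did not overlap.

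Both genes that rose belong to the Slco family. Slco2a1, the prostaglandin transporter, read 22.8, 23.0 and 19.1 in mutants, against 12.7, 11.2 and 11.2 in wild types, and rose by 0.88 ± 0.14 (limma, adjusted p = 0.00161). A second Slco2a1 probe differed by 0.20 ± 0.23 and did not pass. Slco4a1, whose human and rat counterparts carry thyroid hormone, read 12.9, 10.1 and 9.94 in mutants, against 6.77, 5.46 and 5.46 in wild types, and rose by 0.90 ± 0.17 (limma, adjusted p = 0.00585). Slc22a13, a urate and nicotinate carrier, differed by -0.39 ± 0.15 and Slc22a23, an orphan member with 2 mutant values, by -0.53 ± 0.16, neither of which passed. With no intensity trend in the variance 0 of the list fell and 0 rose, and without mutant replicate 2 none fell.

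Of 22 genes for efflux, urate and nucleoside transport, 20 were tested, of which 1 fell, 0 rose and 19 did not pass (median -0.27). Among those that did not pass, 8 had means under the low-signal limit. The gene that fell was Slc17a1, an anion and urate carrier of the brush border, at 27.8, 26.1 and 30.3 in mutants, against 37.0, 54.5 and 60.2 in wild types. It fell by 0.82 ± 0.17 (limma, adjusted p = 0.0118), a call lost without mutant replicate 2 or wild-type replicate 3 and with no intensity trend in the variance. Its relative Slc17a3 differed by -0.64 ± 0.20 by the brightest of 3 probes, which did not pass (limma, adjusted p = 0.0993). A dimmer probe of Slc17a3 fell by 1.00 ± 0.14 (limma, adjusted p = 0.000827), and the third lay under the low-signal limit on all arrays.

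Further genes of this list gave values without calls. Abcc2, the efflux pump MRP2, differed by -0.97 ± 0.29 with levels of 6.70, 4.67 and 6.94 in mutants, against 7.58, 20.7 and 10.3 in wild types (limma, adjusted p = 0.0789). The nucleoside carrier Slc29a1 differed by 0.81 ± 0.29 and the pump Abcc3 by -0.82 ± 0.32, and Abcb1b was under the low-signal limit on all arrays. Abcc3 read 2.20, 3.13 and 2.44 in mutants, against 6.31 and 3.23 in wild-type replicates 1 and 2, with no value in wild-type replicate 3. Of 7 dicarboxylate and anion exchange partners, 0 passed in either direction by limma. At an unadjusted p under 0.05, 1 was lower and 0 higher, against 6.29% and 14.6% of all genes. Among them Slc13a3, which loads the cell with the dicarboxylate that OAT1 and OAT3 exchange, read 2.66, 1.56 and 2.44 in mutants, against 3.38, 3.67 and 4.50 in wild types, and differed by -0.82 ± 0.27 (limma, adjusted p = 0.115, unadjusted p = 0.00946). The groups of Slc13a3 did not overlap.

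Of 13 regulators and scaffolds, 10 were tested, of which 2 fell and 0 rose. Hnf4a, a transcription factor of the proximal tubule, read 34.7, 41.2 and 36.2 in mutants, against 67.0, 70.1 and 53.5 in wild types, and fell by 0.76 ± 0.15 log2 units (limma, adjusted p = 0.00685). Pdzk1, a scaffold that binds the tails of apical carriers including URAT1, read 55.0, 57.4 and 73.9 in mutants, against 87.2, 105 and 97.6 in wild types, and fell by 0.64 ± 0.16 (limma, adjusted p = 0.0286). Both groups were apart in both genes, and both calls were lost with no intensity trend in the variance and with replicates 2 and 3 alone. In fits without mutant replicate 1 or 2 or wild-type replicate 2 or 3, 1 gene of the list fell. The transcription factor genes Cebpb and Bcl6 differed by 1.55 ± 0.43 and 1.63 ± 0.59 and did not pass (limma, adjusted p = 0.0559 and 0.155). Nr1i2, the xenobiotic receptor PXR, differed by -1.12 ± 0.41 and did not pass (limma, adjusted p = 0.162), with 0 of 3 mutant and 3 of 3 wild-type values above the low-signal limit. Nfe2l2, a regulator of drug-handling genes, differed by 0.26 ± 0.15.

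**Figure D3:**
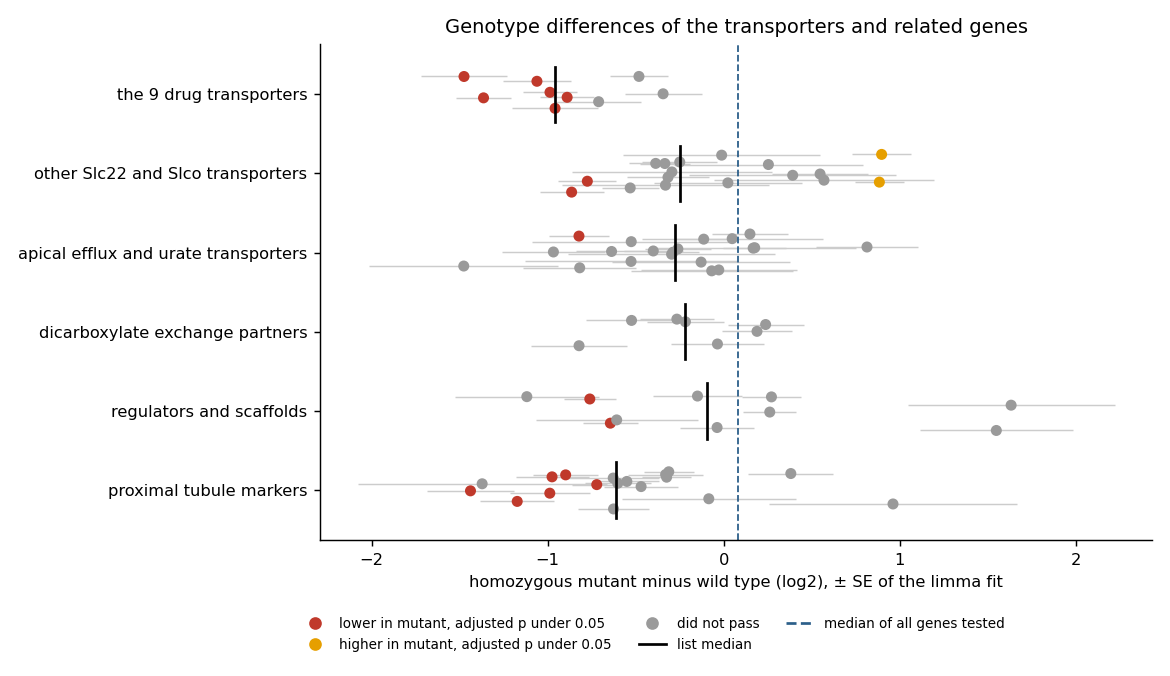
Difference in log2 units, homozygous mutant minus wild type, ± SE (horizontal axis) of the 9 transporters and of the tested genes of 5 related lists, 1 point per gene, coloured by whether the gene fell, rose or did not pass, with the list median as a black bar and the median of all genes as a dashed line. The medians are -0.96 for the 9 transporters, -0.61 for proximal tubule markers and between -0.27 and -0.09 for the other 4 lists. Means under the low-signal limit were held by 0 of the 9, 6 other Slc22 and Slco genes and 8 efflux and urate genes. They were also held by 2 regulators and 2 proximal tubule markers.

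Proximal tubule markers of the same arrays were lower as a list, and the part of cell markers in the transporter differences was not tested. Of 18 proximal tubule markers tested, 6 fell and 0 rose, with a median of -0.61, and 1 fell without mutant replicate 2 and 3 without wild-type replicate 3. Their summed level over 17 genes was between 1440 and 1598 array medians in mutants and between 2139 and 2555 in wild types. Bright probes weigh most in such a sum, here Keg1, Miox, Pck1 and Slc27a2, with mutant means of 381, 344, 271 and 192. Of these only Miox passed. Gatm, of creatine synthesis, differed by -1.44 ± 0.25, the lactate carrier Slc5a12, with 2 mutant values, by -1.17 ± 0.21, and the phosphate carrier Slc34a1 by -0.72 ± 0.14. Dpep1, a brush border dipeptidase, differed by -0.90 ± 0.19, the endocytic receptor Cubn by -0.98 ± 0.21 and Miox, of inositol breakdown, by -0.99 ± 0.23. These are the 6 that fell. Slc5a2 and Amn, named for this alone, had means under the low-signal limit. In bulk kidney, fewer proximal tubule cells and less transcript per cell cannot be told apart.

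Markers of injury and of immune cells were higher in mutants, and 1 of 15 markers of other nephron segments passed. Of 7 tubular injury markers tested 7 rose, with summed levels between 297 and 335 in mutants and between 64.6 and 86.1 in wild types. Of 10 endothelial and immune markers 6 rose, among them Cd14, C1qa, Ctss and Cd74, known from myeloid or antigen-presenting cells. Sums over both kinds of marker together were 277 to 387 in mutants and 81.7 to 92.6 in wild types. The endothelial markers Pecam1 (0.78 ± 0.30), Emcn (0.34 ± 0.15) and Kdr (-0.0009 ± 0.15) did not pass, nor did the immune marker Ptprc. On the wild-type arrays Havcr1, Timp1 and Ptprc were above the low-signal limit on 0 of 3 and Krt20 on 1 of 3, while all 3 mutant arrays were above it for each. Ptprc differed by 1.48 ± 0.40 and did not pass (limma, adjusted p = 0.0522). Its value in wild-type replicate 1 was below 0 and was dropped. Of 15 markers of other nephron segments 1 fell, Pvalb of the distal convoluted tubule (-1.44 ± 0.25), and 0 rose, with sums of 619 to 738 in mutants and 551 to 701 in wild types. Calb1 and Umod, with mutant means of 301 and 218, weigh most in these sums. At an unadjusted p under 0.05 in the same limma fit, 0 of the 9 transporters were higher in mutants, against 14.6% of all genes. Higher genes numbered 2 of 17 other Slc22 and Slco genes, 1 of 20 efflux genes and 2 of 10 regulators. They numbered 0 of 18 proximal tubule markers and 1 of 15 markers of other segments. Lower by the same measure were 8 of the 9 transporters, against 6.29% of all genes. So were 5 of 17 other Slc22 and Slco genes, 6 of 20 efflux genes and 3 of 10 regulators. Of the markers, 13 of 18 of the proximal tubule and 1 of 15 of other segments were lower.

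**Figure D4:**
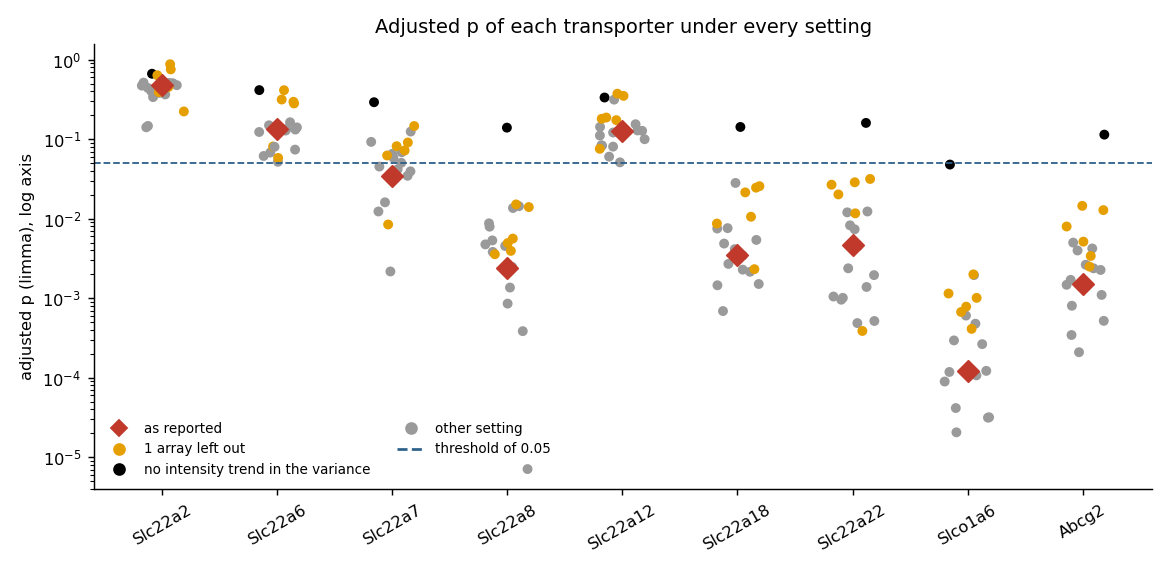
Adjusted p of the limma fit (vertical log axis) for each of the 9 transporters as reported (red diamond), with 1 array left out (orange), with no intensity trend in the variance (black) and in the other settings (grey), against the threshold of 0.05 (dashed line). Slco1a6 lies below the line in every setting, and Slc22a8, Slc22a18, Slc22a22 and Abcg2 lie above it with no intensity trend only.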

How the data were processed

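The deposited table held 1 linear intensity per probe and array as processed by the authors. Per the labels' protocols, biotin-labelled cRNA was hybridised to CodeLink arrays. How background and scaling were handled, and with which software, was not given in the sources used here. From the values, with array medians between 0.994 and 0.997 and a minimum of -1.02, the intensities were background-subtracted and scaled. Of 34937 probes, 207 to 255 lacked a value on any 1 array, and 2.66% to 3.46% of an array's values were 0 or negative. The number of arrays limits the precision.

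Array values were divided by the array median, those not above 0 were dropped, a floor was set at the 10th percentile of the positive values (0.290), and the log2 scale was used. A probe needed values in at least 2 mice per genotype, and after removal of the dimmest 25% there were 25834. Symbols came from the platform annotation, in which 21590 probes have 1 symbol, 681 have several and 12666 have none. All 9 genes matched the RefSeq gene table by identifier. A gene of several probes was represented by the one with the highest mean log2 level. The genotype test was that of limma 3.58.1 under R 4.3.3 (lmFit, eBayes with an intensity trend, two-sided), with adjustment over 25834 probes, and the code was tested on simulated data. The low-signal limit is the mode of the values (0.529) plus 3 times the spread below it (0.332), or 1.53.

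The 9 genes and all lists were chosen with earlier results of these data known. Named genes are the 9, up to 6 per related list and up to 4 per marker list by smallest p, the sex-linked genes, and the 5 genes most like the mean profile. Fewer are printed for some lists. A few genes are named outside the rule, for their signal or for not having passed, after their values were seen. The second Xist probe and the Uty probe lay under the low-signal limit on all arrays. Same-numbered mutant and wild-type arrays deviated from their group means with correlations of 0.07, 0.02 and 0.07. Those of different numbers had correlations between -0.07 and 0.003. All were small and the labels state no pairing, so the numbers were not taken as pairs in the main fit. Deviations from a group's own mean are tied to each other, so correlations of same and of different numbers are not independent. Alternatives covered scaling, the floor, filters, variance models, a replicate block, replicates 2 and 3 alone, and leaving out each array. Protein sequences were not used here, and 1 planned motif search is not reported here.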

Additional observations from a re-analysis of the deposited data

How the results depend on the processing

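Over 20 alternative fits, 19 of them planned, all 9 transporters had a negative difference in each. The number that fell was 6 in 8 fits, 5 in 11 and 1 with no intensity trend in the variance. Slco1a6 passed in all 20. With no intensity trend Slc22a8 (-1.48), Slc22a18 (-0.89), Slc22a22 (-1.06) and Abcg2 (-0.99) did not pass (limma, adjusted p = 0.140, 0.143, 0.161 and 0.114), and they passed in the other 19. Slc22a7 did not pass with no floor (-0.96), a pseudocount of 0.5 (-0.94), the dimmest 50% of probes left out (-0.96), no intensity trend (-0.96), robust variance (-0.96), array weights (-0.72) or replicates 2 and 3 alone (-0.65), where the limma adjusted p lay between 0.0506 and 0.293. Its second probe (-1.76) and that of Slc22a22 (-0.67) did not pass in the fit as reported, and with replicate 1 as a covariate only that of Slc22a7 passed (limma, adjusted p = 0.00703, against 0.446 for that of Slc22a22). The cause was not tested. Slc22a2, Slc22a6 and Slc22a12 passed in 0 of 20 by limma, with lowest adjusted p of 0.142, 0.0521 and 0.0513, against unadjusted p of 0.138, 0.0121 and 0.0111 as reported.

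Leaving out 1 array at a time gave 5 to 6 transporters lower, with ranges of -1.24 to -0.63 for Slc22a7, -1.66 to -1.13 for Slc22a8, -1.04 to -0.76 for Slc22a18, -1.31 to -0.87 for Slc22a22 and -1.10 to -0.85 for Abcg2. Such fits hold fewer arrays. In them 0 to 2 other Slc22 and Slco genes fell and 2 to 3 rose, 0 to 2 efflux and urate genes fell, 1 to 2 regulators fell and 0 to 2 rose, and 1 to 7 proximal tubule markers fell and 0 to 1 rose. All genes lower numbered 113 to 248 and higher 476 to 803, and all probes 154 to 325 and 589 to 1026.

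With no intensity trend, other Slc22 and Slco genes lower and higher, efflux genes lower, regulators lower and proximal tubule markers lower all numbered 0 (limma), all genes 6 lower and 143 higher, and all probes 12 lower and 179 higher. After quantile normalization 4 other Slc22 and Slco genes and 3 efflux genes fell, and all genes lower numbered 403 and probes 551. After cyclic loess 3 efflux genes and 1 dicarboxylate partner fell, and all genes lower numbered 398 and probes 554. The share of calls that were higher in mutants was 63.5% and 65.2% after these scalings, against 78.1% as reported. Efflux genes lower numbered 2 with no filter on dim probes, robust variance, array weights, replicates 2 and 3 alone or replicate 1 as a covariate. With array weights 1 dicarboxylate partner fell and all genes lower numbered 353. With replicates 2 and 3 alone 1 dicarboxylate partner and 0 regulators fell, and all genes higher numbered 499 and probes 630. Regulators higher numbered 1 with the pseudocount, no filter on dim probes, robust variance or replicate 1 as a covariate.

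With the replicate block, 6 transporters fell, 3 efflux genes fell, 1 regulator rose and all genes lower numbered 363. Same-numbered arrays had slightly higher correlations of their deviations (0.02 to 0.07) than arrays of different numbers (-0.07 to 0.003). The deviations were taken from each genotype's own mean, which ties these ranges to each other, so their contrast cannot decide on a pairing. Replicate 1 also carried the female transcript pattern in both genotypes. The block changed the call of none of the 9 transporters.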
